A study of Mus musculus with 16 samples.

Results

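The genes described here are 32 mouse genes of fibroblasts, of mural cells (pericytes and smooth muscle) and of the collagen matrix, taken from a list of symbols and measured in cultured oligodendrocyte precursor cells (OPCs), the cells that give rise to the myelinating cells of the brain. All 32 were found among the 55335 genes of the count files, and all 32 were among the 19764 genes with enough counts to be tested. By role, 6 are contractile or mural genes, 5 fibrillar collagen chains, 2 basement membrane collagen chains, 3 collagen VI chains, 3 small proteoglycans, 8 matrix glycoproteins, 4 cross-linking enzymes or collagen chaperones, and 1, Twist1, a transcription factor. The RNA came from OPCs that had been derived from mouse neural stem cells through oligospheres and were collected on their 4th day in monolayer, all on a mixed C57BL6J/129svEmx background. There were 4 groups of 4 libraries: WT (RXRg+/+) untreated, WT with the thyroid hormone T3 for 24 h, RXRgKO (RXRg-/-) untreated, and RXRgKO with T3 for 24 h. RXR gamma, the product of Rxrg, is a nuclear receptor that can pair with thyroid hormone receptors. Neither the disrupted exon nor the origin of the replicates (separate cultures, animals or repeats of 1 culture) is stated, and the p-values therefore cover only library-to-library spread, which may be technical.

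Smooth muscle cells, pericytes and myofibroblasts contract with a set of actin-binding proteins whose genes are driven largely by serum response factor and its cofactors, and contractile gene expression is commonly raised by transforming growth factor beta (TGF-beta). Fibroblasts secrete fibrillar collagens, which a chaperone and hydroxylases help to fold and lysyl oxidases cross-link, while collagen IV forms the sheet of the basement membrane and collagen VI the beaded filaments around cells. In the brain these genes are known mainly from vessels, meninges and scars, and OPCs are not a main source of most of them.

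Libraries held 18262279 to 42588442 counts in genes, of which 13603 to 83667 fell on the 32 members. Expression of Rxrg itself ran opposite to the labels: its mean was 1.51 ± 0.282 CPM (counts scaled to a common library size; SD, n = 4) in untreated WT-labelled and 4.25 ± 0.546 CPM in untreated RXRgKO-labelled libraries, and 0.703 ± 0.271 and 4.92 ± 0.493 CPM with T3. Directions between genotypes are therefore given below as between labels. Libraries of a group fell into sets, with a chi-square per gene of 1.50 to 2.12 within and 4.94 to 9.62 between sets. Replicate 1 stood apart in both WT-labelled groups. Among the RXRgKO-labelled libraries, untreated replicates 1 and 3 and T3-treated replicates 1 and 2 lacked Xist, the RNA of the inactive X chromosome (1.39 to 3.75 CPM), while untreated replicates 2 and 4 and T3-treated replicates 3 and 4 had it (543 to 723 CPM). The 8 OPC markers examined summed to 2110.5 to 5318 CPM per library.

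Start-site windows from RefSeq (GRCm38.p6) were found for 19 of the 32 members, and a few in which a searched motif was found are printed here, chosen after the matches were seen, for genes whose values are described below. In the 250 bases before each start, both strands were searched for 4 motifs: AGGTCA, a half-site of nuclear receptors including thyroid hormone and retinoid X receptors; the CArG box, the site of serum response factor; CAGCTG, an E-box of basic helix-loop-helix factors; and TATAAA, a core promoter element. AGGTCA was present for 1 member (5.26%; 15.8% of the 27025 genes in the table), the CArG box for 1 (5.26%; 1.62%), CAGCTG for 3 (Acta2, Bgn and Sparc, 15.8%; 14.7%) and TATAAA for 3 (Col3a1, Postn and Twist1, 15.8%; 14.3%). No match overlapped another, a match describes letters and not a bound site, and an absent motif is absent only from this window. Capitals mark the motif, and each stretch is on the plus strand and ends before the first annotated exon. Myl9 is shown over chr2:156775214-156775419 for its CArG box, which begins 161 bases before the start. Col3a1 is shown over chr1:45311288-45311537 for TATAAA, 117 bases before. Postn has 2 listed starts, shown over chr3:54359017-54359266 for AGGTCA, which lies on the opposite strand and reads TGACCT as printed (138 bases before), and over chr3:54360857-54361106 for TATAAA (26 bases before).
Myl9: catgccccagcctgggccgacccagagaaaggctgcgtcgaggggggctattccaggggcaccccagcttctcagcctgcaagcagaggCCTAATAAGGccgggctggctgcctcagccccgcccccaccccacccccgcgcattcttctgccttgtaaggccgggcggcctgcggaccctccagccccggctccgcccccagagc
Col3a1: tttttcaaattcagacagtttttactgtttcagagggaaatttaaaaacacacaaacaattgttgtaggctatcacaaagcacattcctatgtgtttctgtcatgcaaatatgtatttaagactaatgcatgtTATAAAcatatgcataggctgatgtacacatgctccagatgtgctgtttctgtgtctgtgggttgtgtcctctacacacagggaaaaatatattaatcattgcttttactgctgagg
Postn, upstream start: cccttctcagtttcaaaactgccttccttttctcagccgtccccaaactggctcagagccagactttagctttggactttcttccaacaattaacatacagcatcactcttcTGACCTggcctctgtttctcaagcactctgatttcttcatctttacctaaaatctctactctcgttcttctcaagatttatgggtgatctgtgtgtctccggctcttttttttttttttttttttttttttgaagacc
Postn, downstream start: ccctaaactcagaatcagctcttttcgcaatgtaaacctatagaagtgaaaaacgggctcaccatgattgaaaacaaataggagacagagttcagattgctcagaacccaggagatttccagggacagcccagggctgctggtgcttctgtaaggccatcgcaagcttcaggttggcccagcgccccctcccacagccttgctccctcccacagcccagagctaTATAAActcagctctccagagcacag

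Most of the 32 genes were higher under the RXRgKO label than under the WT label, with and without T3. Without T3, 26 of 32 were higher and 0 lower (6.17% and 5.16% of all genes tested were) and the median of the 32 was a log2 fold change of 2.35, where the median of all genes was -0.00082. With T3, 23 of 32 were higher and 0 lower (8.1% and 6.8% of all genes) and the median was 1.41, against 0.02 for all genes. All 10 collagen chains were among them in both comparisons, as were the contractile genes Acta2, Tagln, Cnn1 and Myl9. In 25 members every untreated RXRgKO-labelled library lay above every untreated WT-labelled library, as did 9.35% of all genes, and in 23 members the same held with T3 (9.17%). All 23 members higher with T3 were also higher without it (88.5% of the 26), and Ctgf, Fbn1 and Loxl2 passed only without T3, which is no test of a difference between treatments. The comparisons share no libraries with each other, but each shares its libraries with a T3 comparison below. Together the 32 genes took 0.0594 ± 0.0042% of gene counts in untreated and 0.0772 ± 0.00722% in T3-treated WT-labelled libraries, and 0.229 ± 0.0474% and 0.205 ± 0.0115% in the RXRgKO-labelled ones (SD, n = 4). In RNA from whole cultures, more cells of a type and more RNA per cell cannot be told apart.

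**Figure D1:**
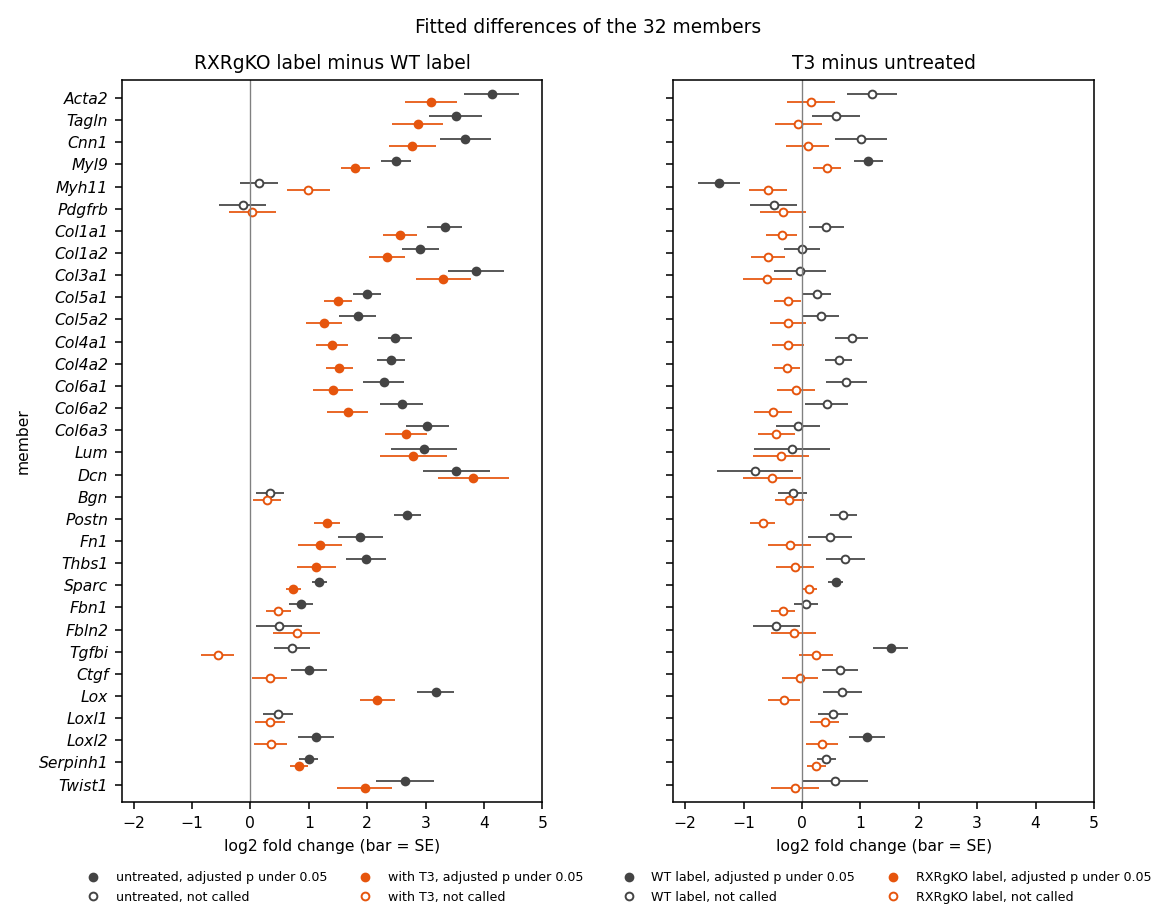
Fitted log2 fold changes (x axis, bar = SE) of the 32 members, between genotype labels at left and for T3 at right; filled points passed an adjusted p of 0.05. In the left panel 26 members passed without T3 and 23 with T3, all to the right of 0; in the right panel 5 passed under the WT label and 0 under the RXRgKO label.

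Markers of other cell types moved with the genotype label as well. Of 8 tested microglia markers, 7 were higher and 0 lower under the RXRgKO label in each comparison. The 1 that did not pass had a log2 fold change of -0.03 without and -0.39 with T3. Sums over the 8 were 17.3 to 26.5 CPM (WT label) against 47.9 to 59.4 CPM (RXRgKO label) untreated. With T3 the sums were 14.3 to 26.7 against 32.4 to 50.8 CPM. Csf1r, Cx3cr1, Aif1, C1qa, Tmem119 and Fcrls were among those higher in both. Their log2 fold changes ran from 1.95 (Csf1r, SE 0.48, adjusted p = 0.0114) to 5.44 (Fcrls, SE 0.58, adjusted p = 1.04e-05) without T3. With T3 they ran from 1.98 (Csf1r, SE 0.54, adjusted p = 0.0204) to 5.67 (Aif1, SE 1.15, adjusted p = 0.00263). Of 8 tested endothelial markers, 4 were higher in both (Cdh5, Kdr, Flt1 and Slco1a4), with sums over 10 markers of 8.37 to 11.4 against 25.6 to 55.3 CPM untreated and 10.6 to 13.2 against 27.3 to 36.8 CPM with T3, while Cldn5, a defining endothelial junction gene, was under 0.3 CPM in every group mean. Of 8 tested pericyte markers 1, Vtn, was higher in both comparisons; the sums over 9 markers overlapped (86.8 to 109 and 79.2 to 104 CPM untreated), and Higd1b was under 0.3 CPM. Of 11 tested fibroblast and meningeal markers, 2 were higher without T3 (Col13a1 and Aldh1a2) and 4 with T3 (Mfap5 and Igf2 in addition), and the defining genes Dpt and Slc22a6 were under 0.3 CPM. The sum over these 12 markers, led by Pdgfra, which OPCs also express, was 802 to 973 CPM in untreated WT-labelled and 367 to 694 CPM in untreated RXRgKO-labelled libraries. The T3-treated sums were 776 to 819 CPM under the WT label; under the RXRgKO label the pair with Xist lay above these, at 905 and 930.4 CPM, and the pair without it below, at 411 and 439 CPM. None of 8 OPC and none of 8 astrocyte markers passed between labels in edgeR's test; at an unadjusted p under 0.05, 1 OPC marker did in each comparison, and 2 and 1 astrocyte markers did without and with T3. The part of these markers' cells in the members' differences was not tested.

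Of the 6 contractile and mural genes, Acta2, Tagln, Cnn1 and Myl9 were higher under the RXRgKO label in both comparisons. Acta2 (ENSMUSG00000035783, GRCm38 chromosome 19, 34241090 to 34255590, minus strand), which encodes smooth muscle actin, was at 3.21, 13.4, 17.2 and 15.6 CPM in untreated WT-labelled replicates 1 to 4 and at 86.8, 369, 168 and 241 CPM in untreated RXRgKO-labelled replicates 1 to 4. With T3 it was at 25.1, 23.6, 29.8 and 34.7 CPM under the WT label and at 213, 173, 304 and 274 CPM under the RXRgKO label. The groups did not overlap, and replicate 1 was lowest in both untreated groups. The untreated labels differed by a log2 fold change of 4.13 (SE 0.47, adjusted p = 2.1e-05), and the T3-treated ones by 3.09 (SE 0.45, adjusted p = 0.000161).

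Tagln (ENSMUSG00000032085, chromosome 9, 45929619 to 45936058), the actin-binding protein transgelin, was at 3.9, 21.2, 23.9 and 20 CPM in the 4 WT-labelled libraries without T3 and 14.7, 23.9, 30.8 and 34.1 CPM in those given T3. Its RXRgKO-labelled values were 101, 291, 193 and 201 CPM without T3 and 212, 196, 187 and 156 CPM after T3. No library overlapped between labels, with log2 fold changes of 3.51 (SE 0.45, adjusted p = 5.21e-05) and 2.86 (SE 0.43, adjusted p = 0.000237). Exons of Tagln overlap those of Pcsk7 on the opposite strand. Whether the counting used strand is not given in the sources used here, so the level of Tagln is uncertain. The same limit holds for other members with opposite-strand exon overlaps: Col5a1, Col4a1, Col4a2, Fn1, Thbs1, Fbn1, Ctgf, Lox and Loxl2.

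Cnn1, the actin-binding protein calponin, was at 0.203, 1.14, 1.81 and 1.35 CPM in untreated WT-labelled and 7.36, 22.3, 14.4 and 13.6 CPM in untreated RXRgKO-labelled replicates 1 to 4. With T3 the libraries spanned 1.1 to 3.17 and 14.4 to 16.3 CPM. Its log2 fold changes were 3.68 (SE 0.43, adjusted p = 2.6e-05) and 2.77 (SE 0.40, adjusted p = 0.000164). Myl9, a regulatory light chain of smooth muscle myosin whose upstream window holds the CArG box printed above, spanned 6.93 to 9.18 against 26.3 to 66.3 CPM untreated and 14.2 to 21.3 against 41.3 to 73.9 CPM with T3. Its log2 fold changes were 2.50 (SE 0.26, adjusted p = 6.92e-06) and 1.80 (SE 0.25, adjusted p = 9.08e-05). All 4 contractile genes were thus separated in every library under both treatments.

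Myh11 and Pdgfrb, unlike the other 4, did not pass between labels. Myh11, the smooth muscle myosin heavy chain and a late marker of mature smooth muscle, stayed at 0.171 to 1.36 CPM in all libraries. The untreated labels differed by 0.15 (SE 0.32, adjusted p = 0.85) and the T3-treated ones by 0.99 (SE 0.36, adjusted p = 0.0797). With T3 every RXRgKO-labelled library (0.468 to 0.812 CPM, 12 to 21 counts) still lay above every WT-labelled one (0.171 to 0.384 CPM, 4 to 9 counts). Pdgfrb, the platelet-derived growth factor receptor that marks pericytes, was at 14.4, 23.3, 23.6 and 27.6 CPM in untreated WT-labelled and at 10.7, 30.6, 10.8 and 29.0 CPM in untreated RXRgKO-labelled libraries. Its RXRgKO-labelled values fell into a low and a high pair, and the log2 fold changes between labels were -0.13 (SE 0.40, adjusted p = 0.9) and 0.03 (SE 0.40, adjusted p = 0.98), with 95% intervals of -0.92 to 0.65 and -0.76 to 0.82.

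**Figure D2:**
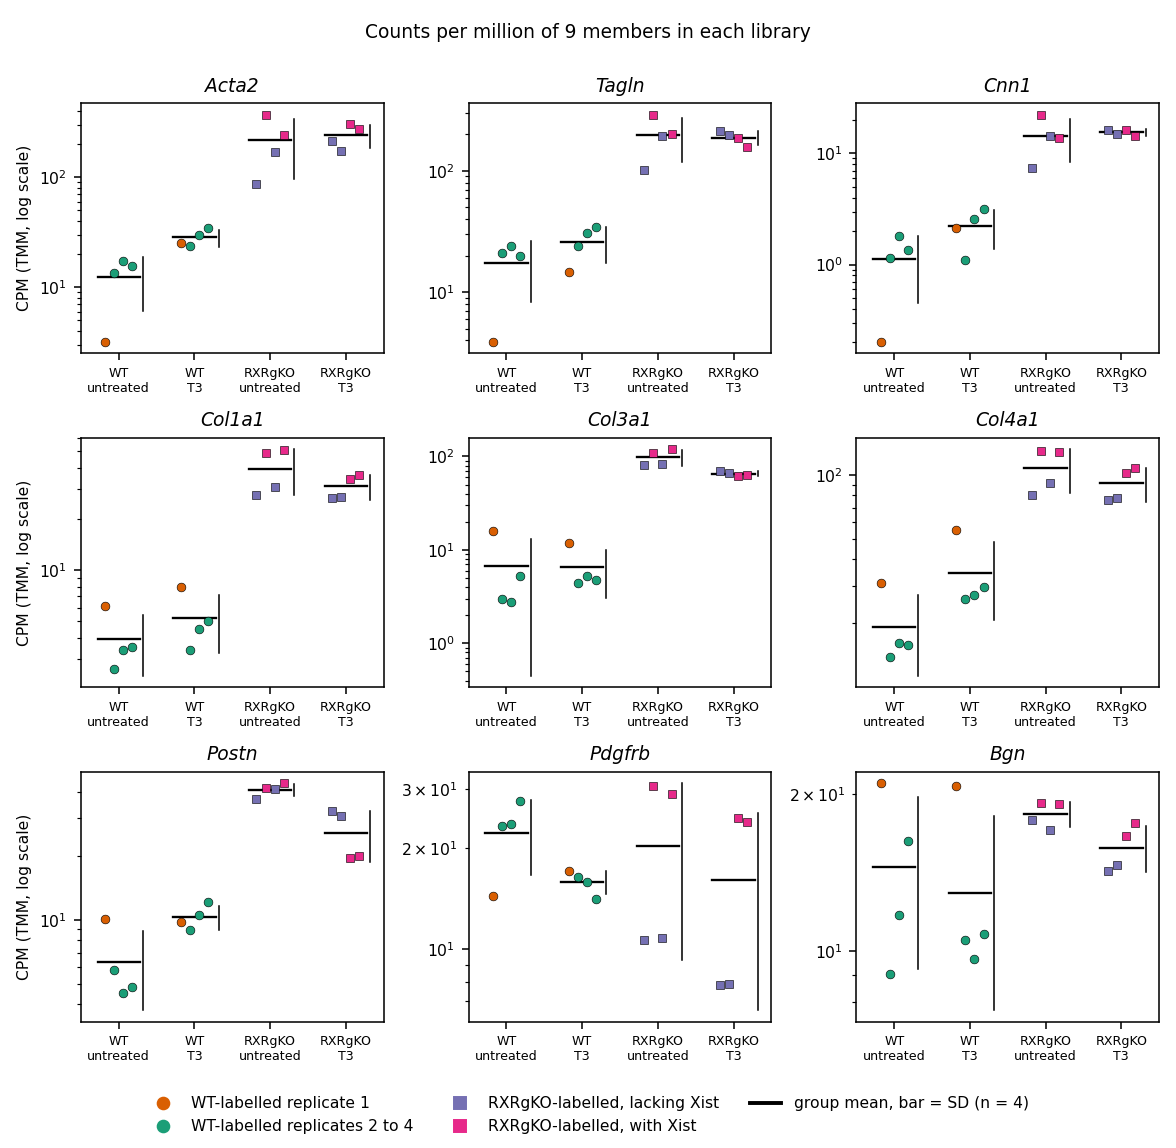
CPM (log scale) of 9 members in each library by labelled group; points are libraries, lines group means and bars the SD (n = 4), and colours mark the library sets. Acta2, Tagln, Cnn1, Col1a1, Col3a1, Col4a1 and Postn do not overlap between genotype labels, while Pdgfrb and Bgn do.

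All 5 fibrillar collagen chains, which form the tensile fibres of connective tissue, were higher under the RXRgKO label. Col1a1 (ENSMUSG00000001506, chromosome 11, 94936224 to 94953042) was at 6.14, 2.62, 3.41 and 3.53 CPM in untreated WT-labelled and 27.5, 48.8, 30.8 and 50.7 CPM in untreated RXRgKO-labelled replicates 1 to 4. With T3 it spanned 3.41 to 7.93 and 26.5 to 36.4 CPM. The gaps were larger than the spread, with log2 fold changes of 3.33 (SE 0.30, adjusted p = 1.94e-06) and 2.56 (SE 0.29, adjusted p = 1.55e-05). Col1a2, the partner chain of Col1a1 in type I collagen, had 2.91 (SE 0.31) and 2.33 (SE 0.31), so the chains of this heterotrimer differed alike in direction.

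Col3a1 (chromosome 1, 45311538 to 45349706), the chain of type III collagen of soft tissue and vessels, was at 16.1, 2.96, 2.74 and 5.27 CPM in untreated WT-labelled and 80.4, 110, 83.4 and 121 CPM in untreated RXRgKO-labelled replicates 1 to 4. Under the WT label replicate 1 was the highest, the reverse of Acta2, Tagln and Cnn1. With T3 Col3a1 was at 11.8, 4.42, 5.21 and 4.82 CPM against 70.3, 66, 61.7 and 63.5 CPM. Its log2 fold changes, 3.86 (SE 0.48, adjusted p = 4.04e-05) and 3.31 (SE 0.47, adjusted p = 0.000123), were the highest of the 10 collagen chains. Col5a1 and Col5a2, chains of the minor type V collagen that regulates fibril width, had smaller values of 2.00 (SE 0.24) and 1.84 (SE 0.31) without and 1.51 (SE 0.24) and 1.27 (SE 0.31) with T3. Col3a1 and Col5a2 are neighbours, 24614 bases apart and transcribed toward each other.

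The basement membrane chains Col4a1 and Col4a2 (chromosome 8), which are transcribed away from each other from starts that overlap by 22 bases, moved together. Col4a1 was at 31.0, 13.9, 16.1 and 15.9 CPM in untreated WT-labelled and 80.7, 129, 91.1 and 128 CPM in untreated RXRgKO-labelled replicates 1 to 4. With T3 the values were 55.2, 26.2, 27.3 and 29.8 CPM and 76.2, 78.0, 102 and 108 CPM. Replicate 1 was the highest WT-labelled library under both treatments, and the gap between labels was smaller with T3, at 1.40 (SE 0.28, adjusted p = 0.00241) against 2.48 (SE 0.29, adjusted p = 2.52e-05). Col4a2 had log2 fold changes of 2.42 (SE 0.24) without and 1.52 (SE 0.23) with T3.

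Collagen VI, whose 3 chains build microfibrils beside cells, was low in the WT-labelled libraries. Col6a3 was at 2.6, 1.44, 0.8 and 1.0 CPM in untreated WT-labelled and 13.8, 9.86, 14.3 and 10.1 CPM in untreated RXRgKO-labelled replicates 1 to 4. With T3 it was at 1.99, 1.25, 1.49 and 0.783 CPM and at 12.0, 11.6, 5.88 and 6.03 CPM. The labels did not overlap, with log2 fold changes of 3.03 (SE 0.36, adjusted p = 2.77e-05) and 2.66 (SE 0.36, adjusted p = 8.23e-05), and under the RXRgKO label the libraries lacking Xist were the higher ones. Col6a1 and Col6a2, which lie 85161 bases apart on chromosome 10, had 2.28 (SE 0.35) and 2.59 (SE 0.37) without and 1.42 (SE 0.34) and 1.67 (SE 0.35) with T3.

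Lum and Dcn, small leucine-rich proteoglycans that bind collagen fibrils and are neighbours on chromosome 10 (46984 bases apart, same strand), were both higher under the RXRgKO label. Dcn was at 1.06, 1.82, 1.43 and 1.22 CPM in untreated WT-labelled and 17.6, 9.9, 25.2 and 11.1 CPM in untreated RXRgKO-labelled replicates 1 to 4. With T3 it was at 0.727, 0.624, 0.64 and 1.15 CPM and at 21.2, 17.7, 2.91 and 3.4 CPM. No library overlapped between labels, although the RXRgKO-labelled libraries with T3 themselves fell into a high and a low pair; the log2 fold changes were 3.53 (SE 0.58, adjusted p = 0.000554) and 3.82 (SE 0.61, adjusted p = 0.000374). Lum, at 0.213 to 1.3 CPM under the WT label and 1.66 to 6.9 CPM under the RXRgKO label, had 2.97 (SE 0.57, adjusted p = 0.00199) and 2.79 (SE 0.58, adjusted p = 0.00292). Bgn, the related biglycan, did not pass: its values were 21, 9.04, 11.8 and 16.2 CPM in untreated WT-labelled and 17.9, 19.2, 17.1 and 19.1 CPM in untreated RXRgKO-labelled libraries, with a log2 fold change of 0.34 (SE 0.25, 95% interval -0.15 to 0.82). Without replicate 1 of both WT-labelled groups, Bgn was higher by 0.58 (adjusted p = 0.0269) without and 0.62 (adjusted p = 0.0155) with T3, the lowest adjusted p values over its alternatives, of which the highest was 0.993 without T3 and close to 1 with T3.

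Of the 8 matrix glycoproteins, 6 were higher without T3 and 4 of these also with T3. Postn, periostin, a protein of remodelling connective tissue, was at 10.1, 5.83, 4.55 and 4.83 CPM in untreated WT-labelled and 37.1, 41.5, 41.0 and 43.8 CPM in untreated RXRgKO-labelled replicates 1 to 4. With T3 it was at 9.8, 8.93, 10.5 and 12.1 CPM and at 32.5, 30.6, 19.6 and 19.9 CPM. The labels stayed apart, but by less with T3: 2.69 (SE 0.24, adjusted p = 1.51e-06) without and 1.31 (SE 0.23, adjusted p = 0.000753) with it.

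Sparc, a collagen-binding protein also made by glia, had the highest level per kilobase of exon among the 32 members (105 CPM per kb over the 4 groups). It was at 198, 219, 226 and 240 CPM in untreated WT-labelled and 485, 499, 579 and 437 CPM in untreated RXRgKO-labelled libraries, a log2 fold change of 1.18 (SE 0.13, adjusted p = 1.43e-05), and 0.73 (SE 0.13, adjusted p = 0.000853) with T3. Thbs1, a secreted activator of TGF-beta, had 1.99 (SE 0.34, adjusted p = 0.000873) without and 1.13 (SE 0.33, adjusted p = 0.0305) with T3, where the call was lost when any 1 of 7 of the 8 libraries was left out, all but RXRgKO T3 replicate 2 (adjusted p 0.0431 to 0.0783 over the 8 omissions). Fn1, fibronectin, the scaffold on which collagen is laid down, had 1.88 (SE 0.38, adjusted p = 0.0033) and 1.19 (SE 0.38, adjusted p = 0.0415); with T3 its libraries overlapped (15.3 to 32.4 against 28.9 to 64.4 CPM). Its call with T3 was lost without any 1 of WT T3 replicates 2, 3 and 4 or RXRgKO T3 replicates 3 and 4 (adjusted p 0.0149 to 0.134 over the 8 omissions).

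Ctgf, a connective tissue growth factor induced by TGF-beta and YAP, and Fbn1, the microfibril protein fibrillin, were higher without T3 by 1.01 (SE 0.31, adjusted p = 0.0431) and 0.87 (SE 0.21, adjusted p = 0.0112). With T3 their values were 0.33 (SE 0.30, adjusted p = 0.553) and 0.48 (SE 0.21, adjusted p = 0.152). The call without T3 was lost for Ctgf when WT untreated replicate 2 or RXRgKO untreated replicate 2, 3 or 4 was left out (adjusted p up to 0.125). For Fbn1 it was lost without WT untreated replicate 3 or RXRgKO untreated replicate 2 or 4 (adjusted p up to 0.066). Fbln2, a fibulin of elastic fibres, and Tgfbi, a TGF-beta-induced adhesion protein, did not pass in either comparison. Fbln2 was at 16.2 CPM in untreated WT-labelled replicate 1 and 4.88 to 5.15 CPM in replicates 2 to 4, against 8.7 to 12.7 CPM under the RXRgKO label. The labels differed in Fbln2 by 0.50 (SE 0.39, adjusted p = 0.539) without and 0.79 (SE 0.40, adjusted p = 0.221) with T3; it passed without untreated WT-labelled replicate 1 (1.16, adjusted p = 0.0383) and without T3-treated WT-labelled replicate 1 (1.38, adjusted p = 0.0187), where other omissions gave an adjusted p of up to 0.78 and 0.447.

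Lox, the lysyl oxidase that starts collagen cross-links, was at 1.34, 0.591, 1.1 and 1.44 CPM in untreated WT-labelled and 6.82, 13.3, 6.05 and 14.2 CPM in untreated RXRgKO-labelled replicates 1 to 4. With T3 it spanned 1.32 to 2.37 and 6.69 to 9.18 CPM. The labels did not overlap, with log2 fold changes of 3.17 (SE 0.32, adjusted p = 5.71e-06) and 2.17 (SE 0.30, adjusted p = 0.000106). Its relatives differed less. Loxl2 had 1.12 (SE 0.30, adjusted p = 0.0205) without T3, with overlapping libraries and no call when WT untreated replicate 2, 3 or 4 or RXRgKO untreated replicate 2 or 4 was left out (adjusted p up to 0.0928), and 0.35 (SE 0.28, adjusted p = 0.487) with T3. Loxl1 did not pass, at 0.47 (SE 0.26, adjusted p = 0.313) and 0.33 (SE 0.25, adjusted p = 0.455).

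Serpinh1, the chaperone that helps procollagen fold in the endoplasmic reticulum, was at 103 to 112 CPM in untreated WT-labelled and 186 to 262 CPM in untreated RXRgKO-labelled libraries. Its log2 fold changes were 1.00 (SE 0.16, adjusted p = 0.000411) without and 0.83 (SE 0.16, adjusted p = 0.00161) with T3. Twist1, a basic helix-loop-helix factor of mesenchyme and of epithelial-to-mesenchymal transition, was at 0.528, 0.38, 0.126 and 0.435 CPM in untreated WT-labelled and 1.13, 3.62, 1.45 and 3.1 CPM in untreated RXRgKO-labelled replicates 1 to 4. Every RXRgKO-labelled library was above every WT-labelled one, by 2.65 (SE 0.50, adjusted p = 0.00175) without and 1.95 (SE 0.47, adjusted p = 0.00842) with T3; without the RXRgKO-labelled libraries with Xist, the value with T3 was 0.98 (adjusted p = 0.088).

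How firmly these differences stand depends on what counts as a replicate. When the counts of each library set were summed, leaving 2 samples a group, 6 members kept their call without T3 (Acta2, Cnn1, Myl9, Col1a1, Postn and Lox; 0.283% of all genes were higher) and 0 did with T3 (0.166%). No member reversed there; the adjusted p of the 26 members reached 0.927 without T3, and that of the 23 with T3 reached 0.747.

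In the WT-labelled libraries, 4 of 32 were higher with T3 (4.96% of all genes) and 1 was lower (3.48%); the median of the 32 was 0.51, against -0.03 over all genes, and 13 had an unadjusted p under 0.05. The share of all genes with an unadjusted p under 0.05 was not counted in any comparison. The 4 higher members were Tgfbi, Myl9, Loxl2 and Sparc, and the lower one was Myh11. Tgfbi rose most, from 1.22, 0.803, 1.1 and 0.696 CPM untreated to 3.95, 2.55, 2.56 and 1.86 CPM with T3, with no overlap and a log2 fold change of 1.52 (SE 0.30, adjusted p = 0.00452). Myl9 rose from 7.28, 6.93, 8.42 and 9.18 CPM to 21.3, 14.2, 16.3 and 17.8 CPM (1.13, SE 0.25, adjusted p = 0.00826). The treated and untreated libraries of both genes were fully apart. Sparc rose from 198 to 240 CPM untreated to 292 to 366 CPM with T3 (0.58, SE 0.13, adjusted p = 0.00961).

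Loxl2, which oxidises lysines of collagen IV, was at 2.32, 0.972, 0.8 and 1.0 CPM before and 3.98, 2.31, 2.69 and 2.02 CPM after T3 in the WT-labelled libraries. The groups overlapped through untreated replicate 1, and the log2 fold change was 1.11 (SE 0.30, adjusted p = 0.0299). The call was lost without WT untreated replicate 2, 3 or 4 or WT T3 replicate 1 or 3 (adjusted p up to 0.13). Myh11 fell, with a log2 fold change of -1.43 (SE 0.36, adjusted p = 0.0199), from 0.528, 1.01, 0.758 and 0.871 CPM to 0.253, 0.384, 0.171 and 0.371 CPM, and lost its call without WT untreated replicate 2 or 4 or WT T3 replicate 3 (adjusted p up to 0.0708). Myl9 and Myh11, both parts of smooth muscle myosin, thus went in opposite directions with T3. With counts summed per library set, 0 of the 5 kept their call (0.0605% of all genes passed there), and Myl9 lost its call without replicate 1 of both WT-labelled groups (0.97, adjusted p = 0.0515).

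None of the 10 member collagen chains passed for T3 under the WT label, where 3 had an unadjusted p under 0.05 in edgeR (Col4a1, Col4a2 and Col6a1). The nearest were Col4a1, at 0.85 (SE 0.28, adjusted p = 0.0747), and Postn among the glycoproteins, at 0.71 (SE 0.23, adjusted p = 0.0728); both passed when untreated WT-labelled replicate 1 was left out (1.19 and 1.03, adjusted p = 0.0101 and 0.00238, of 0.27 and 0.247 at most over the omissions). Acta2 had 1.19 (SE 0.43, adjusted p = 0.103), although every T3-treated library lay above every untreated one. Replicate numbers may pair the WT-labelled libraries across treatments, which neither the labels nor the data settled for replicates 2 to 4. With the replicate number as a block in the WT-labelled libraries alone, 17 members passed, 15 higher and 2 lower (16.0% and 13.3% of all genes), among them the 5 named above and in addition Acta2, Tagln, Col1a1, Col4a1, Col4a2, Col6a1, Postn, Ctgf, Lox, Loxl1 and Serpinh1 as higher and Fbln2 as lower. Xist and Ddx3y, a Y-linked gene, also differed between these treatments: in replicates 2 to 4, Xist spanned 1198 to 1382 CPM before and 276 to 365 CPM after T3, and Ddx3y 13.9 to 15.8 and 68.1 to 78.3 CPM. The block takes same-numbered libraries as pairs, which was not tested against these values. In replicates 2 to 4, T3 and this difference in Xist and Ddx3y cannot be told apart. Its part in the members' changes was not tested.

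Under the RXRgKO label, 0 of 32 members passed for T3 in edgeR (2.81% of all genes did), in DESeq2 (6.04% of all genes) and in limma voom, and 1, Postn, had an unadjusted p under 0.05 in edgeR. The median of the 32 was -0.22, and 8 of 32 values were above 0. Postn read 37.1, 41.5, 41.0 and 43.8 CPM before and 32.5, 30.6, 19.6 and 19.9 CPM after T3, every treated library below every untreated one, with a log2 fold change of -0.67 (SE 0.22, adjusted p = 0.126). All 10 collagen chains had values below 0, from -0.59 (Col3a1, SE 0.42) to -0.11 (Col6a1, SE 0.33). With the library set as a term, 15 members passed, 13 of them lower (33.6% of all genes passed there). Lower were Pdgfrb, Fbn1, Postn, Lum, Dcn and the collagen chains Col1a1, Col1a2, Col3a1, Col5a1, Col4a1, Col4a2, Col6a2 and Col6a3, and higher were Myl9 and Loxl1; Postn there had -0.71 (adjusted p = 0.00906). That fit treats libraries of 1 set as independent.

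The T3 response itself was compared between labels by the difference of the 2 changes. None of the 32 members passed in edgeR's fit of the group means (0.0658% of all genes did), 6 had an unadjusted p under 0.05, and 1 passed in DESeq2 (0.531% of all genes). The difference was negative in 28 of 32 members (87.5%) and in 45.2% of all genes, which is the same as saying that the gap between labels was larger without T3 in 28 members. The most negative value was that of Postn, -1.38 (SE 0.32, adjusted p = 0.181), followed by Tgfbi, -1.27 (SE 0.42, adjusted p = 0.539), and Col4a1, -1.08 (SE 0.39, adjusted p = 0.638). Postn passed without untreated WT-labelled replicate 1 (-1.72, adjusted p = 0.00743, of 0.412 at most over the 16 omissions). In edgeR with the library set as a term, Postn (-1.45, adjusted p = 0.00886) and Col4a1 (-1.08, adjusted p = 1.32e-07) passed. So did Col1a1, Col1a2, Col5a1, Col4a2, Col6a1, Col6a2, Sparc, Tgfbi, Ctgf and Lox, all with negative values. That fit treats libraries of 1 set as independent and gives a set the same effect with and without T3. Its calls over all genes are given at the end. Dcn, Myh11, Fbln2 and Pdgfrb had values above 0, from 0.16 (SE 0.57) for Pdgfrb to 0.84 (SE 0.48, adjusted p nearly 1) for Myh11.

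Contractile and collagen members were set side by side as means of log2 CPM in each library, over Acta2, Tagln, Cnn1 and Myl9 and over the 10 collagen chains. The contractile mean was 2.55 ± 0.91 in untreated and 3.67 ± 0.31 in T3-treated WT-labelled libraries, and 6.07 ± 0.68 and 6.31 ± 0.18 in the RXRgKO-labelled ones (SD, n = 4). The collagen mean was 2.59 ± 0.48, 2.95 ± 0.48, 5.30 ± 0.33 and 4.97 ± 0.11 in the same order. Both means separated the labels completely. Contractile minus collagen was 0.55, 0.87 and 0.52 in untreated WT-labelled replicates 2 to 4 and -2.11 in replicate 1. With T3 it was 0.66, 1.04 and 1.31 in replicates 2 to 4 and -0.14 in replicate 1. Under the RXRgKO label it was 0.24, 1.22, 0.94 and 0.64 untreated and 1.42, 1.22, 1.46 and 1.28 with T3. Replicate 1 of the WT label thus stood below every other library in this balance of 4 genes. The other 14 libraries overlapped between labels, at 0.24 to 1.46. These 4 are the contractile genes that passed between labels. With Myh11 and Pdgfrb included, the balance was 0.39, 0.53 and 0.31 in untreated WT-labelled replicates 2 to 4, and 0.05, 0.10 and 0.42 with T3. In replicate 1 it was -1.98 untreated and -0.91 with T3, the latter within the RXRgKO-labelled range. Under the RXRgKO label it ran from -0.95 to -0.33 untreated and from -0.38 to -0.10 with T3, below WT-labelled replicates 2 to 4. These means are over chosen genes, so no test is given for them.

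**Figure D3:**
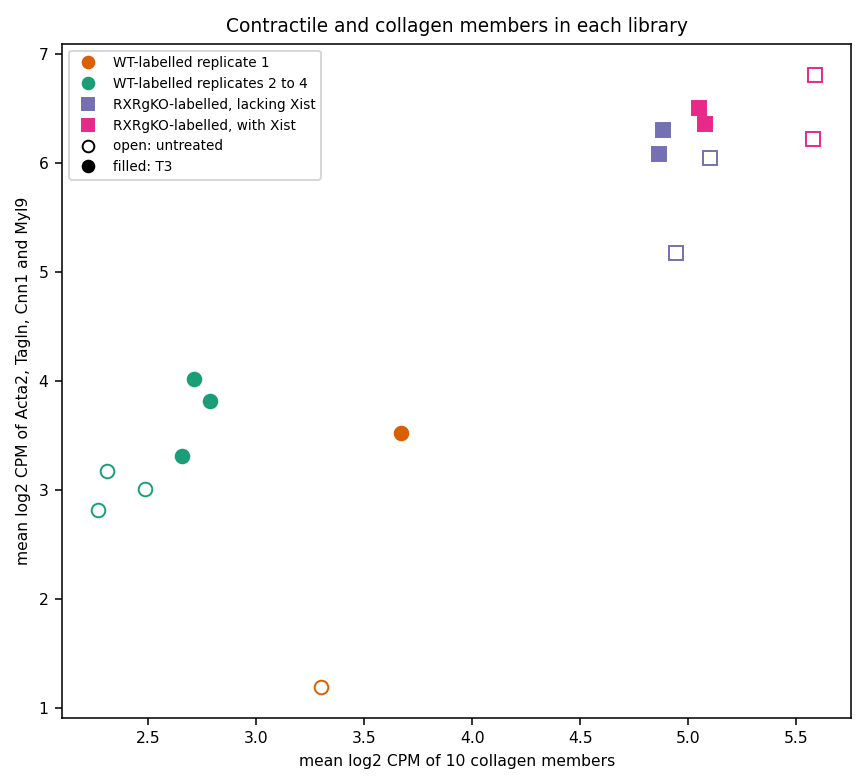
Mean log2 CPM of 10 collagen chains (x axis) and of Acta2, Tagln, Cnn1 and Myl9 (y axis) in each of the 16 libraries; colours mark library sets and filled symbols T3. The RXRgKO-labelled libraries lie above both means of all WT-labelled ones, and WT-labelled replicate 1 lies right of and, untreated, below replicates 2 to 4.

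Replicate 1 of the WT-labelled groups differed from replicates 2 to 4 in a pattern of members. Untreated, it had the lowest value of the group for 11 members, among them Acta2, Tagln, Cnn1, Thbs1 and Ctgf, and the highest for 19, among them 9 of 10 collagen chains. With T3 it was highest for 21 members, including all 10 collagen chains, and lowest for Tagln, Thbs1 and Ctgf. Under both treatments 16 members were highest and 3, Tagln, Thbs1 and Ctgf, lowest in replicate 1. The shares of all genes highest or lowest in replicate 1 were not counted. Replicate 1 differed over many genes (chi-square per gene 7.66 to 8.49), so these counts are not read as particular to the members. Thbs1 was at 9.88 CPM in untreated replicate 1 and 32.6 to 39.5 CPM in replicates 2 to 4. With T3 it was at 48.2 CPM in replicate 1, close to the 48.6 to 51.8 CPM of replicates 2 to 4. Ctgf, often read as a target of the same mechanical signals as Thbs1, was at 3.5 CPM in untreated replicate 1 against 11.1 to 13.1 CPM. Beside this, the 8 astrocyte markers summed to 8340.2 CPM in untreated replicate 1 against 3113 to 3285 CPM, and to 15269 against 4786 to 5716 CPM with T3, and the 8 OPC markers to 5318 against 3783 to 4064 CPM untreated; their part in the pattern was not tested. Without replicate 1 of both groups, 28 members were higher between labels without T3 and 26 with T3 (8.15% and 11.5% of all genes).

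**Figure D4:**
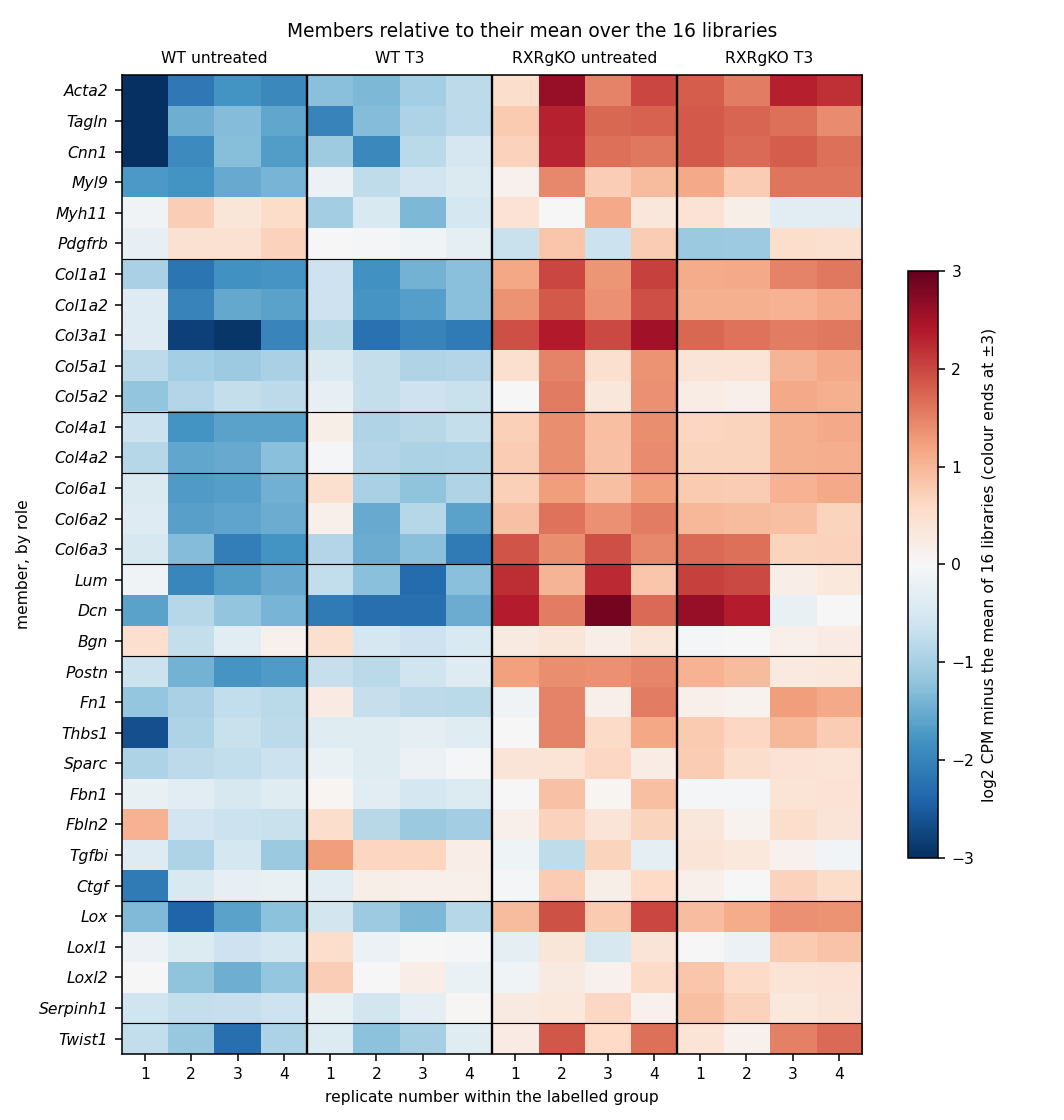
Log2 CPM of the 32 members (rows, by role) minus each gene's mean over the 16 libraries (columns, by group and replicate number; colours end at ±3). The 8 RXRgKO-labelled columns are mostly red and the 8 WT-labelled mostly blue; WT-labelled replicate 1 differs from its neighbours, with paler collagen rows and, untreated, the darkest blue in Acta2, Tagln and Cnn1.

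The RXRgKO-labelled sets differed in 22 members in the same direction under both treatments. The share of all genes split in this way was not counted. The sets differed over many genes (chi-square per gene 4.94 to 9.62), and so few libraries a set are often split by chance. The count is therefore not read as particular to the members. In 17, the libraries lacking Xist were both below those with Xist: Acta2, Myl9, Pdgfrb, Col1a1, Col5a1, Col5a2, Col4a1, Col4a2, Col6a1, Bgn, Fn1, Fbn1, Fbln2, Ctgf, Lox, Loxl1 and Twist1. In 5 they were both above: Myh11, Col6a3, Lum, Dcn and Tgfbi. Pdgfrb was at 10.7 and 10.8 CPM in the untreated libraries lacking Xist and 30.6 and 29.0 CPM in those with it, and at 7.82 and 7.89 against 24.6 and 24.0 CPM with T3. Dcn went the other way, at 17.6 and 25.2 against 9.9 and 11.1 CPM untreated and at 21.2 and 17.7 against 2.91 and 3.4 CPM with T3. Fn1 was at 25.4 and 30.3 against 76.7 and 79.3 CPM untreated and at 30.1 and 28.9 against 64.4 and 59.7 CPM with T3. The proteoglycans Lum and Dcn thus moved against Fn1, Pdgfrb and most collagen chains between these libraries. In the libraries lacking Xist the OPC markers summed to 2615 to 2866 CPM untreated, against 4995 to 5051 CPM, and to 2110.5 to 2166 against 3913 to 4188 CPM with T3, while the astrocyte markers summed to 5277 to 5586 against 2819.8 to 2915 CPM and 6998 to 7961 against 4383 to 4655 CPM; their part was not tested.

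**Figure D5:**
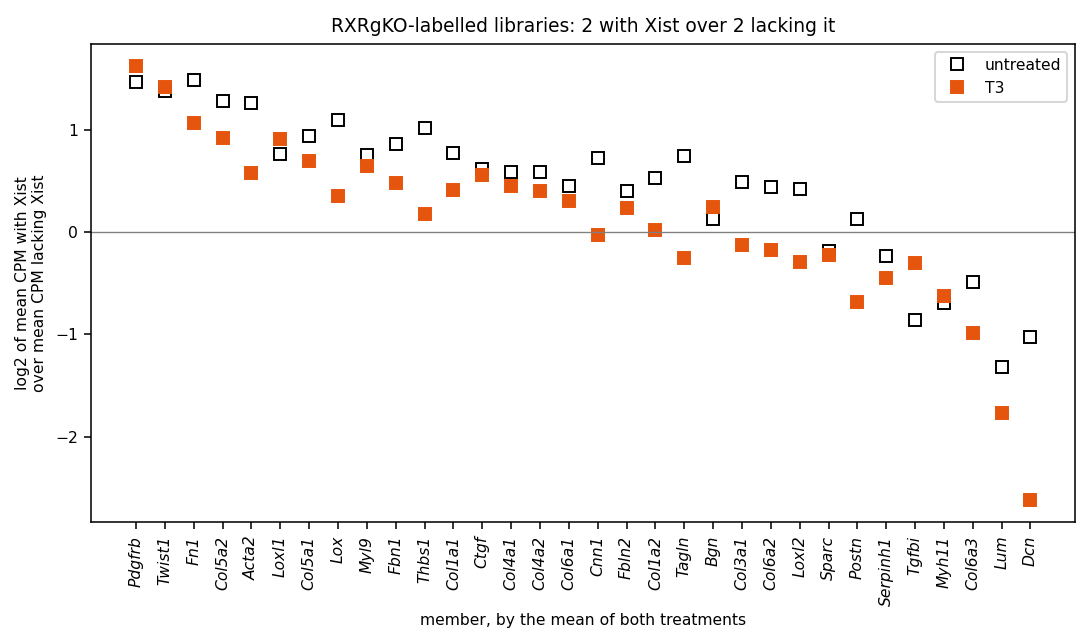
For each member, the log2 ratio of the mean CPM of the 2 RXRgKO-labelled libraries with Xist over that of the 2 lacking it (y axis), untreated (open) and with T3 (filled), ordered by their mean. Pdgfrb, Twist1 and Fn1 lie highest, and Dcn and Lum lowest, under both treatments.

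Leaving out either set changed which members stood apart from the WT label. Without the libraries with Xist, 24 members were higher and 1 lower without T3 (8.78% and 12.1% of all genes), and 21 higher and 1 lower with T3 (11.8% and 15.7%). Fbn1, Ctgf and Loxl2 no longer passed without T3 (adjusted p = 0.146, 0.256 and 0.128), nor did Fn1, Thbs1 and Twist1 with T3 (adjusted p = 0.157, 0.0657 and 0.088), while Tgfbi without T3 and Myh11 with T3 were gained as higher. The lower one was Pdgfrb in both, at -1.12 (adjusted p = 0.00267) and -1.09 (adjusted p = 0.0026). Under all its alternatives, the adjusted p of Pdgfrb ranged up to 0.997 without T3 and 1 with T3. Without the libraries lacking Xist, 27 and 25 members were higher and none lower (6.16% and 8.21% of all genes higher), with Loxl1 gained in both and Fbn1 with T3.

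Other genes of the matrix and its regulation, from lists, were examined for their counts. Of 29 other matrix genes, 16 were higher and 1 lower between labels without T3, and 15 and 2 with T3, with medians of 1.10 and 0.84. The genes higher in both comparisons included Col8a1, Col14a1, Col18a1, the basement membrane genes Lama1, Lamb1, Nid1, Nid2 and Hspg2, and Fbln5. Efemp1, a fibulin-like protein, went the other way, with log2 fold changes of -2.31 (SE 0.16, adjusted p = 1.31e-07) and -1.24 (SE 0.16, adjusted p = 4.12e-05). For T3 under the WT label, 7 of the 29 were higher and 2 lower. Thbs2, a relative of Thbs1, rose with T3 from 3.53 to 18.1 CPM under the WT label (2.35, SE 0.15, adjusted p = 1.69e-07), and its response was smaller under the RXRgKO label (difference -1.59, SE 0.20, adjusted p = 0.00601). Col20a1 rose from 12.1 to 443 CPM (5.19, SE 0.40, adjusted p = 8.57e-07).

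Of 22 enzymes and chaperones of collagen processing, 4 were higher and 1 lower between labels without T3, and 1 and 2 with T3, while 5 were higher with T3 under the WT label. Pcolce, which speeds the removal of the procollagen propeptide, rose with T3 from a mean of 1.12 to 10.7 CPM under the WT label (3.26, SE 0.24, adjusted p = 5.25e-07) and from 7 to 16.3 CPM under the RXRgKO label (1.22, SE 0.21, adjusted p = 0.00285). Its response differed between labels by -2.04 (SE 0.31, adjusted p = 0.0182). Pcolce2 and Adamts2, the propeptidase, rose by 2.10 (SE 0.27) and 1.93 (SE 0.25) under the WT label. Among the 10 member collagen chains none passed for T3 under the WT label in the unpaired fit and 4 did with the replicate block (Col1a1, Col4a1, Col4a2 and Col6a1); the processing genes and the chains were not tested against each other.

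Of 19 other contractile and actin genes, 7 were higher and 1 lower between labels without T3, and 8 and 1 with T3. Lmod1, leiomodin of smooth muscle, had 2.86 (SE 0.29, adjusted p = 5.25e-06) and 2.17 (SE 0.27, adjusted p = 3.52e-05), and Tpm2, a tropomyosin, 1.38 (SE 0.19) and 1.65 (SE 0.20). Csrp1, a LIM protein also made by astrocytes, was lower, with -1.56 (SE 0.26, adjusted p = 0.000746) and -2.27 (SE 0.27, adjusted p = 2.52e-05). Of 20 TGF-beta genes, 4 were higher and 2 lower without T3, and 5 and 2 with T3. The receptor gene Tgfbr2 was higher (1.49, SE 0.16, and 1.19, SE 0.16), the inhibitory Smad7 was lower (-1.93, SE 0.24, and -2.22, SE 0.24), and Bambi, a decoy receptor, was higher (1.50, SE 0.19, and 0.92, SE 0.18).

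Of 16 matrix proteases and inhibitors, 6 were higher and 0 lower without T3, and 3 and 0 with T3; at an unadjusted p under 0.05, 10 and 4 of the 16 stood out in either direction. Mmp2, a gelatinase of fibroblasts, had 2.83 (SE 0.30, adjusted p = 9.16e-06) and 2.05 (SE 0.28, adjusted p = 0.00011). The inhibitor Timp1 rose with T3 under both labels (3.44, SE 0.42, and 2.12, SE 0.38), and Adamts1 under the WT label (0.94, SE 0.11). Of 15 integrins and collagen receptors, 4 were higher and 2 lower without T3, and 2 and 2 with T3. Ddr2, a receptor for fibrillar collagen, was at means of 2.14 and 19.1 CPM under the WT and RXRgKO labels without T3 (3.15, SE 0.17, adjusted p = 2.54e-08) and 2.15 and 18.6 CPM with T3. Of 14 tested mesenchymal transcription factors, 8 were higher and 1 lower without T3, and 7 and 1 with T3. Foxc1, a forkhead factor of meninges and mural cells, had 2.27 (SE 0.17, adjusted p = 2.31e-07) and 2.52 (SE 0.17, adjusted p = 1.2e-07), and Tbx18, a T-box factor of mural cells, 3.17 (SE 0.37) and 2.88 (SE 0.38). The lists were drawn up with earlier results of these data known, and their counts are descriptions. Beside them, 6.17% of all genes were higher and 5.16% lower between labels without T3, and 8.1% and 6.8% with T3. For T3 under the WT label, 4.96% of all genes were higher and 3.48% lower.

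Per kilobase of exon, the order of the members changed between labels. In untreated WT-labelled libraries, the group means were led by Sparc (58.2 CPM per kb) and Serpinh1 (44.1 CPM per kb), followed at some distance by Tagln (8.67), Myl9 (6.84) and Acta2 (5.63 CPM per kb). In untreated RXRgKO-labelled libraries Sparc was at 132, Tagln at 98.9, Acta2 at 98.5 and Serpinh1 at 88.2 CPM per kb, and the libraries of Tagln and of Acta2 overlapped in level per kb with those of both Sparc and Serpinh1. The collagen chains ranged from 0.122 (Col6a3) to 2.87 CPM per kb (Col5a2) in untreated WT-labelled and from 1.00 (Col6a3) to 14.4 CPM per kb (Col4a1) in untreated RXRgKO-labelled libraries. Myh11 was the lowest member in every group, at 0.0388 to 0.116 CPM per kb. Levels per kb used all annotated exons of a gene, so they understate genes whose cells use a short transcript.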

How the data were processed

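RNA of 16 libraries (200 ng each) had been made into TruSeq Stranded mRNA libraries, which select poly-A RNA, per the labels' protocols. Each deposited file holds raw counts for Ensembl genes; the submitters' processing notes name bcl2fastq 2.17.1.14, STAR 2.5.3a, HTSeq 0.6.1p1 and mm10, and no source used here states the strand setting or annotation release. Names and positions came from GENCODE M21 (55154 of 55335 identifiers matched; Ctgf and Cyr61 are listed there as Ccn2 and Ccn1). The 5 HTSeq summary lines were left out of library sizes.

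Counts were normalised by TMM, filtered by filterByExpr, and fitted with edgeR 4.0.16 (R 4.3.3, glmQLFit, robust) as 4 group means over all 16 libraries and 19764 genes. The 5 comparisons were quasi-likelihood tests with Benjamini-Hochberg adjustment over all genes and a threshold of 0.05. The fit was also run on simulated counts of independent libraries. That simulation held no library sets, so it cannot show how the calls hold where sets exist. Standard errors (SE) were taken as |log2 fold change| over the root of the F statistic; a prior count of 2 entered log2 CPM. Alternatives used DESeq2 1.42.0, limma 3.58.1, other filters and scalings, replicate and library-set terms, and omitted libraries. Library sets joined libraries of a group with a chi-square per gene under 3, over genes with a summed count of 20 to 500.

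The members and lists were chosen with earlier results of these data known. All members are named, with up to 3 genes per pathway list by smallest adjusted p; other list and marker genes are named where they passed, chosen after their values were seen. Some marker results are not reported here. For pairing, deviations from the group means were correlated between same-numbered libraries. For T3 under the WT label all 4 correlations were above 0.1 (0.648, 0.247, 0.211 and 0.164). The best match had the same number for replicates 1 and 3 but not for replicates 2 and 4. Replicate 1 stood apart in both groups, which shifts the deviations of replicates 2 to 4 the same way. These correlations therefore cannot show pairs among replicates 2 to 4. The labels do not state pairs either, and the replicate block was used only as an alternative. Each of the other group comparisons had at least 1 negative correlation.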

Additional observations from a re-analysis of the deposited data

Results flagged for a closer look

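In 15 of 128 groups of 4 libraries (32 members in 4 groups), 1 library lay apart from the other 3, its gap to the nearest, over the group's range, being past Dixon's 95% critical value; chance gives about 1 in 20 groups. In 14 of the 15 that library was replicate 1 under the WT label, highest in 13 and lowest in 1, and 0 lay under the RXRgKO label. The genes are not independent, since they share these libraries.

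Among the untreated WT-labelled libraries, replicate 1 was at 31.0 CPM for Col4a1 (others 13.9 to 16.1), 6.59 CPM for Col6a1 (2.70 to 3.26) and 3.21 CPM for Col6a2 (1.31 to 1.44). It was also highest for Lum at 1.30 CPM (0.296 to 0.435), Fbln2 at 16.2 CPM (4.88 to 5.15) and Loxl2 at 2.32 CPM (0.800 to 1.00).

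With T3, replicate 1 under the WT label was at 55.2 CPM for Col4a1 (others 26.2 to 29.8), 23.3 CPM for Col4a2 (12.3 to 13.0), 12.6 CPM for Col6a1 (3.84 to 4.74) and 11.8 CPM for Col3a1 (4.42 to 5.21). It was at 20.7 CPM for Bgn (9.69 to 10.8), 32.4 CPM for Fn1 (15.3 to 16.7) and 11.3 CPM for Fbln2 (3.54 to 4.27). Ctgf was the exception, lowest there at 12.3 CPM (17 to 17.5). The remaining value was Thbs1 in T3-treated WT-labelled replicate 3, at 51.8 CPM (48.2 to 48.8). Gfap, an astrocyte gene, was at 4728 CPM in untreated replicate 1 (others 819 to 1001) and 11207 CPM in T3-treated replicate 1 (others 2455 to 2834); its part was not tested.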

How the results depend on the processing

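Of the members' single values under all alternatives, 3571 kept their side of the threshold (values that did not pass could differ in sign), 103 newly passed, 96 no longer passed and 1 passed with the opposite sign (Pdgfrb with T3, -1.09 without the RXRgKO-labelled set with Xist); no cause was tested. Leaving out 1 library gave 23 to 27 members between labels without T3, 21 to 23 with T3, 3 to 8 for T3 under the WT label, 0 to 0 under the RXRgKO label and 0 to 1 for the response difference; over all genes 1712 to 2206, 2178 to 3195, 997 to 2475, 253 to 500 and 3 to 49. Counts summed per set gave 6, 0, 0, 0 and 0 members and 141, 110, 15, 3 and 0 genes in the same order, with 2 samples a group. The library set as a term gave 19, 15 and 12 members for the 3 T3 comparisons, and 8938, 9303, 7599, 6634 and 1321 genes. For T3 under the WT label, members passing were 3 with no filter, 9 with DESeq2, 17 with the replicate block in these libraries alone (5084 genes), 11 without the RXRgKO-labelled set lacking Xist and 10 without the set with Xist (2800 and 2626 genes), and 2688 genes passed without replicate 1 of both WT-labelled groups. Under the RXRgKO label, 2 members passed without those replicates (1540 genes) and 2 without the set lacking Xist; DESeq2 gave 1194 genes and omission of the set with Xist 129. The response difference had 1 member with DESeq2 (105 genes) and 1 without replicate 1 of both WT-labelled groups (118 genes); 1 CPM in 4 libraries gave 20 genes, the replicate block 4 and omission of the set lacking Xist 26. Without the set with Xist, 4518 genes passed without T3 and 5955 with T3. Scaling by total counts changed the split of higher and lower genes from 1220 and 1020 to 1867 and 777 without T3, from 1600 and 1343 to 2459 and 1028 with T3, from 980 and 688 to 763 and 1205 for T3 under the WT label, and from 398 and 157 to 306 and 438 under the RXRgKO label. Same-numbered libraries were not shown to be pairs, and for T3 under the WT label the correlations could not settle this for replicates 2 to 4. Member counts without a count of all genes beside them are not read as particular to the members. Low counts limit the precision of low members such as Myh11, Twist1 and Lum.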
